A study of Mus with 8 samples.

Results

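The genes described here are 9 transcripts of the hypoxia response, measured in mouse bone marrow monocytes that had been cultured inside hydrogels. They were chosen as a list of Ensembl IDs paired with gene symbols, and all 9 were found among the 17640 gene IDs of the series count table. The IDs are ENSMUSG00000021109 (Hif1a), ENSMUSG00000035105 (Egln3), ENSMUSG00000023951 (Vegfa), ENSMUSG00000030790 (Adm), ENSMUSG00000078566 (Bnip3), ENSMUSG00000026773 (Pfkfb3), ENSMUSG00000025161 (Slc16a3), ENSMUSG00000050914 (Ankrd37) and ENSMUSG00000005125 (Ndrg1). All 9 passed the filter on low counts, which kept 14785 IDs.

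Cells sense low oxygen mainly through the alpha subunits of the hypoxia-inducible factors (HIF). When oxygen is present, prolyl hydroxylases mark these subunits for destruction. When it is scarce, the subunits persist, pair with ARNT and switch on genes for glycolysis, lactate export, mitochondrial turnover and blood vessel growth. HIF-1 alpha is regulated largely as a protein, so the level of its transcript is not a readout of its activity. In monocytes and macrophages the same factor is also raised by inflammatory and metabolic signals.

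The study asked what elasticity of the surrounding matrix does to such cells, with and without a Jak2 mutation that drives myeloproliferative neoplasm. The 4 groups of 2 libraries were Jak2 V617F Vav-iCre cells in elastic matrix, Jak2 V617F Vav-iCre cells in viscous matrix, Vav-iCre control cells in elastic matrix and Vav-iCre control cells in viscous matrix. All mice were on the C57BL/6 background, and both genotypes carried Vav-iCre, a recombinase expressed in blood-forming cells. The Jak2 mutation was knocked in at its own gene. All cells were harvested on day 3 from stiff gels bathed in medium with IL4 at 200 ng/mL, plus GM-CSF and PGE2 at 100 ng/mL each. The age and sex of the mice, and the oxygen tension of the cultures, are not stated in the labels. A gel comparison sets one gel chemistry against another, so elasticity cannot be told apart from other differences between the gels.

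Each library title ends in a number that an elastic and a viscous library of the same genotype have in common. The 2 numbers of Jak2 V617F cells are called J1 and J2 here, and those of control cells W1 and W2. The labels leave unsaid whether a number marks an animal or a culture, so p-values reflect only how far these libraries differ, in part perhaps for technical reasons. Library totals lay between 30632355 and 38408851 counts, and no pair of libraries within a group agreed within counting noise. Apart from the 9 genes, the IDs could not be paired with names, since the RefSeq gene table held an Ensembl ID for 0 of its 49997 genes. The monocyte label was therefore not checked against marker genes, and other pathway genes are not described. In bulk RNA a lower level can mean fewer cells of a type or less transcript per cell, and these cannot be told apart.

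Both control libraries numbered W1 held less of 8 of the 9 transcripts than any of the other 6 libraries. The gene that did not follow was Hif1a. Over all 14785 IDs, 14.8% had both W1 libraries below the other 6. The tests below are therefore also given without these libraries. They are left out for their values of these same genes, which narrows the spread of the genes by choice. Errors, p-values and counts of genes without W1 are thus descriptions, by edgeR as by DESeq2. Set beside the share of all IDs, they are no independent support. Levels are given as CPM, counts per 1e+06 counts of the scaled library total, and are compared only within a gene. Where 2 values of Jak2 V617F cells follow each other, J1 comes first.

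Hif1a encodes the oxygen-regulated subunit of HIF-1 and lies on chromosome 12 (73901324 to 73947554). Its level was 823 and 793 CPM in Jak2 V617F cells in elastic matrix, and 752 and 769 CPM in Jak2 V617F cells in viscous matrix. In control cells it was 711 (W1) and 825 CPM (W2) in elastic matrix, and 597 (W1) and 679 CPM (W2) in viscous matrix. Within each genotype both elastic libraries lay above both viscous ones, but the genotypes overlapped. The highest library held 1.38 times the lowest. A spread this wide or wider was found for 70.7% of the 11743 IDs averaging 50 counts or more, so Hif1a was among the steadier transcripts.

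Egln3 encodes a prolyl hydroxylase that marks HIF alpha subunits for destruction and is itself induced by HIF; it lies on chromosome 12 (54178981 to 54203874). It stood at 85.5 and 70.9 CPM in Jak2 V617F cells in elastic matrix (J1 and J2), and at 67.0 and 67.4 CPM in viscous matrix. In control cells the elastic libraries stood at 19.0 (W1) and 79.2 CPM (W2), and the viscous libraries at 14.1 (W1) and 41.5 CPM (W2). The 4 Jak2 V617F libraries lay between 67.0 and 85.5 CPM, while the control pairs were 4.17-fold apart in elastic and 2.94-fold apart in viscous matrix. Among the 6 libraries other than W1, the control W2 library in viscous matrix was the lowest.

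Ankrd37 encodes an ankyrin repeat protein known as a HIF-1 target and lies on chromosome 8 (45996908 to 46000414). Its level was 13.7 and 14.1 CPM in Jak2 V617F cells in elastic matrix (J1 and J2) and 14.1 and 12.5 CPM in viscous matrix. Control cells held 3.62 (W1) and 17.3 CPM (W2) in elastic matrix, and 2.40 (W1) and 9.71 CPM (W2) in viscous matrix. With 7.20 times as much in the highest as in the lowest library, it had the widest spread of the 9 genes. The lowest library held 88 counts.

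Secreted factors come next. Vegfa encodes the main growth factor for blood vessels and lies on chromosome 17 (46016993 to 46032377). Its level was 929 and 816 CPM in Jak2 V617F cells in elastic matrix (J1 and J2) and 905 and 849.9 CPM in viscous matrix. Control cells held 237 (W1) and 764 CPM (W2) in elastic matrix, and 309 (W1) and 828 CPM (W2) in viscous matrix. The 6 libraries other than W1 lay within 1.22-fold of each other.

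Adm encodes adrenomedullin, a peptide that widens blood vessels, and lies on chromosome 7 (110627657 to 110629820). It was the scarcest of the 9 in counts, with 143 and 91 counts in Jak2 V617F cells in elastic matrix (4.16 and 2.87 CPM) and 65 and 45 counts in viscous matrix (1.65 and 1.26 CPM). Control cells in elastic matrix gave 23 (W1) and 93 counts (W2), or 0.743 and 2.90 CPM, and control cells in viscous matrix 32 (W1) and 34 counts (W2), or 0.871 and 1.06 CPM. Counting error alone gives exact Poisson 95% intervals of 0.471 to 1.11 CPM for the lowest library and 3.51 to 4.90 CPM for the highest. All elastic libraries except control W1 lay above all viscous libraries.

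Bnip3 encodes a mitochondrial protein that promotes the removal of mitochondria, and lies on chromosome 7 (138890836 to 138909506). It stood at 134 and 130.4 CPM in Jak2 V617F cells in elastic matrix and at 122 and 118 CPM in viscous matrix. In control cells it stood at 40.8 (W1) and 169 CPM (W2) in elastic matrix, and at 41.3 (W1) and 119.8 CPM (W2) in viscous matrix. Its W1 libraries were level with each other, whereas its W2 libraries differed between the gels.

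The 2 genes of glucose use were Pfkfb3, whose enzyme makes an activator of glycolysis, and Slc16a3, which encodes a lactate exporter. Pfkfb3 (chromosome 2, 11471430 to 11554071) held 361 and 378 CPM in Jak2 V617F cells in elastic matrix (J1 and J2) and 282 and 296 CPM in viscous matrix. In control cells it held 195 (W1) and 428 CPM (W2) in elastic matrix, and 218 (W1) and 275 CPM (W2) in viscous matrix. Slc16a3 (chromosome 11, 120948484 to 120959000) held 350.2 and 309 CPM in Jak2 V617F cells in elastic matrix and 278 and 250.4 CPM in viscous matrix. In control cells Slc16a3 held 151 (W1) and 328 CPM (W2) in elastic matrix, and 119 (W1) and 207 CPM (W2) in viscous matrix. For both genes the control W1 library in elastic matrix lay below all 4 Jak2 V617F libraries. The control W2 library in elastic matrix lay above both Jak2 V617F elastic libraries for Pfkfb3 and between them for Slc16a3.

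Ndrg1 encodes a cytoplasmic protein induced by hypoxia and other stresses, and lies on chromosome 15 (66929318 to 66969641). Of the 9 genes it had the widest gap between Jak2 V617F replicates, at 62.4 (J1) and 99.2 CPM (J2) in viscous matrix, 1.59-fold apart. In elastic matrix the Jak2 V617F libraries held 102 and 91.7 CPM. Control cells held 39.4 (W1) and 91.5 CPM (W2) in elastic matrix, and 34.5 (W1) and 82.2 CPM (W2) in viscous matrix.

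**Figure D1:**
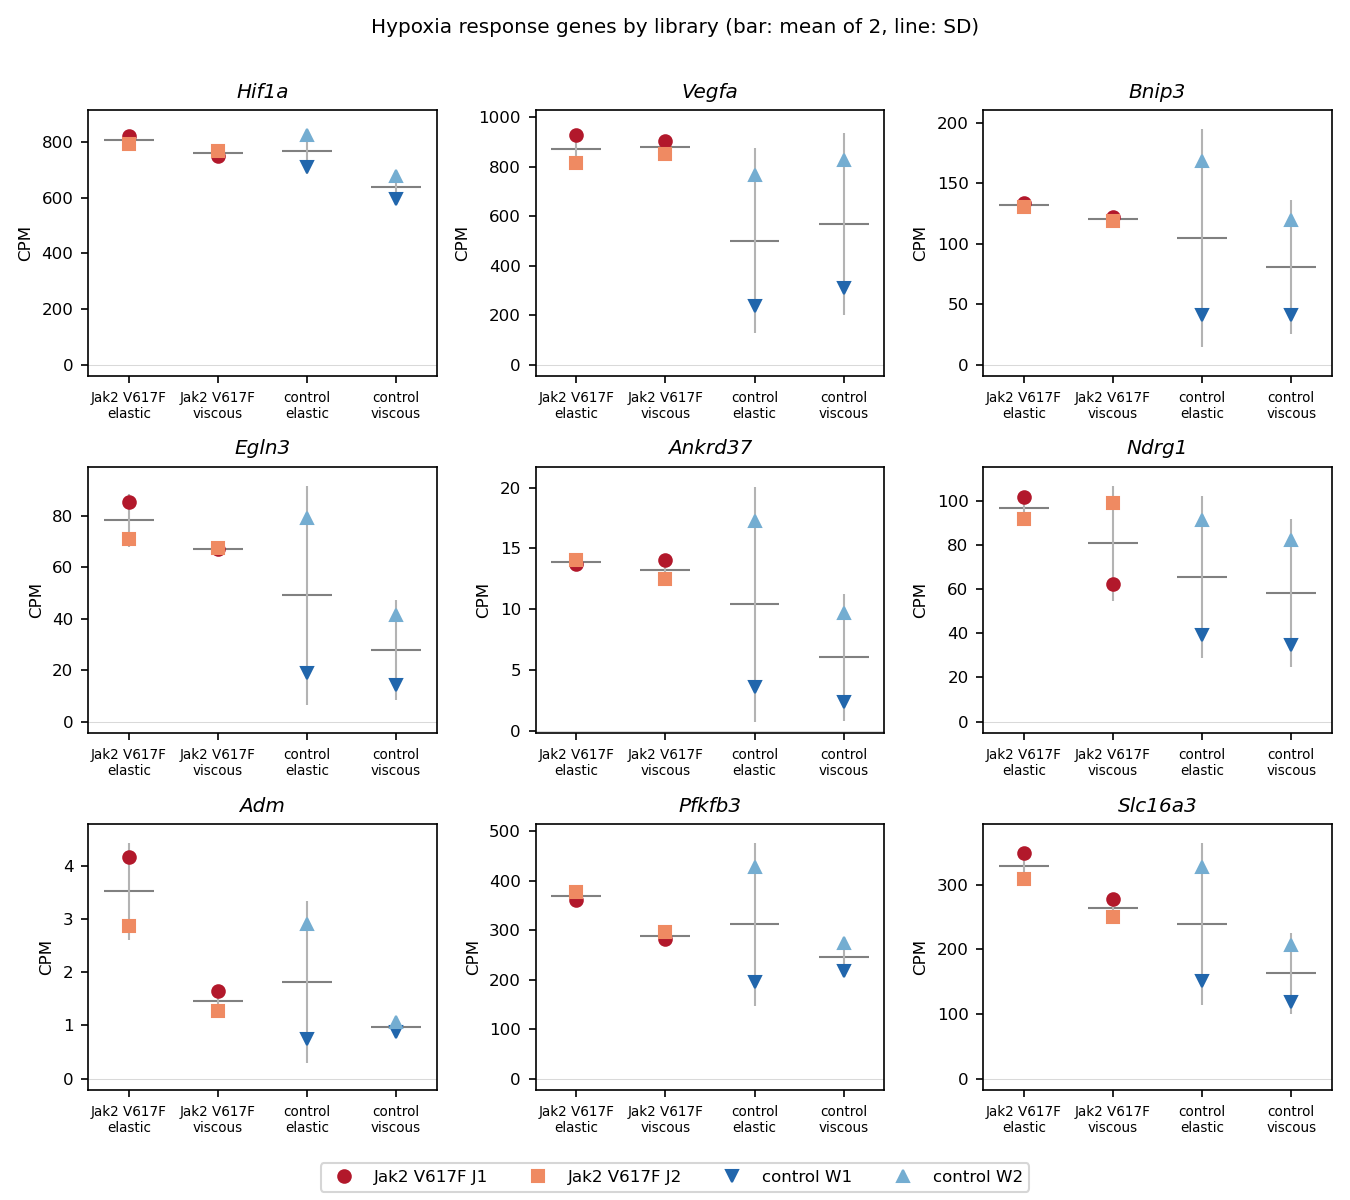
Level of each gene in CPM (y axis, from 0) in the 4 groups (x axis), with 1 point per library, a bar for the mean of the 2 libraries and a line for the SD. In 8 of the 9 panels the W1 libraries lie below the other 6 and the widest gap in fold between Jak2 V617F replicates is that of Ndrg1 in viscous matrix.

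Coordinates are those of the RefSeq annotation on GRCm38.p6, matched by symbol for all 9 genes; the submitters' processing notes name GRCm38. The annotated span of 6 of the 9 overlaps another gene: Gm15283 for Hif1a, Gm18258 for Bnip3, Ufsp2 for Ankrd37, Gm28863 for Adm, Gm52500 and Gm10851 for Pfkfb3, and Csnk1d for Slc16a3. The labels do not state whether the counting used strand, so reads where such genes overlap may be shared.

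The width of these spreads was set beside that of all other transcripts. Among the 11743 IDs averaging 50 counts or more, the highest library held a median of 1.58 times the lowest, and for the 9 genes the median was 3.91 times. A ratio of at least 2 was found for 8 of the 9 genes and for 28.2% of the IDs. Without the W1 libraries the medians were 1.63 for the 9 genes and 1.38 for all, and a ratio of at least 2 was found for 2 of the 9, Egln3 at 2.06 and Adm at 3.94, and for 14.4% of the IDs.

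**Figure D2:**
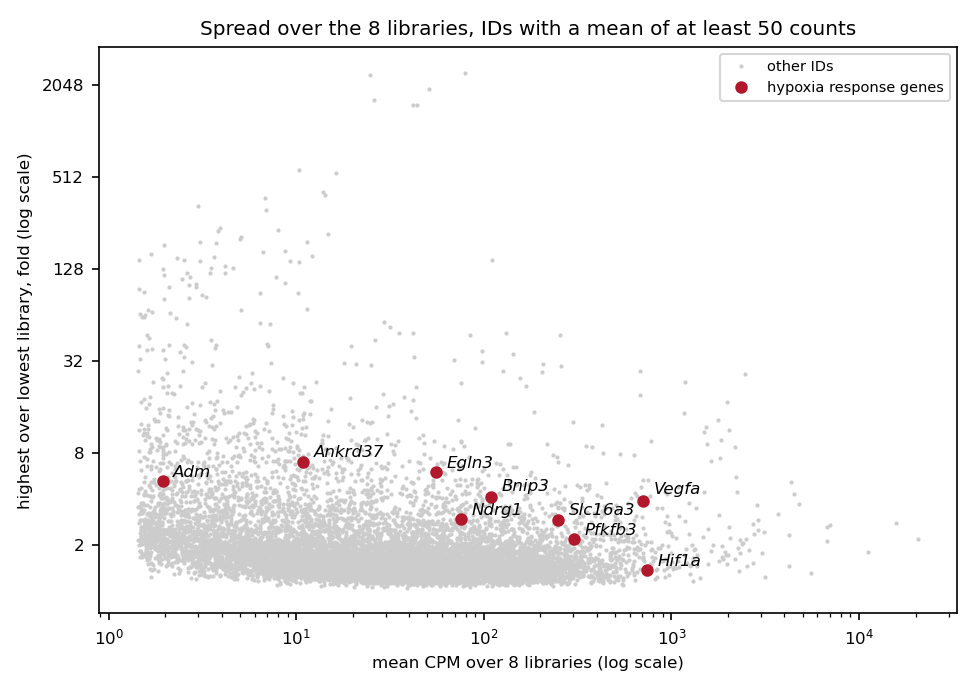
Ratio of the highest to the lowest library (y axis, log scale) against mean CPM over the 8 libraries (x axis, log scale) for the 11743 IDs averaging 50 counts or more. Ankrd37 and Egln3 lie highest of the 9 labelled genes, and Hif1a lies within the dense band of other IDs.

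Libraries of the same group were compared directly, as W1 minus W2 in control cells. In elastic matrix the difference in log2 CPM was −2.24 for Ankrd37, −2.06 for Egln3, −2.05 for Bnip3, −1.88 for Adm and −1.69 for Vegfa. In the same matrix it was −1.21 for Ndrg1, −1.13 for Pfkfb3, −1.12 for Slc16a3 and −0.21 for Hif1a. In viscous matrix it was −1.99 for Ankrd37, −1.55 for Egln3, −1.53 for Bnip3, −1.42 for Vegfa and −1.25 for Ndrg1. The viscous difference was smaller for Slc16a3 (−0.80), Pfkfb3 (−0.33), Adm (−0.26) and Hif1a (−0.19). Every one of these differences was below 0. The median of the 9 genes was −1.69 in elastic and −1.25 in viscous matrix, beside 0.0072 and −0.012 for all 14785 IDs.

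At least 2-fold less in W1 than in W2 in both matrices was found for 5 of the 9 genes (Vegfa, Bnip3, Egln3, Ankrd37 and Ndrg1) and for 3.37% of all IDs. The control replicates also stood farther apart over all transcripts: the median absolute difference of all IDs was 0.35 in both control pairs, against 0.14 in elastic and 0.23 in viscous matrix between the Jak2 V617F replicates. In Jak2 V617F cells the 9 genes differed little between J1 and J2, with a median absolute difference of 0.15 in elastic and 0.090 in viscous matrix. The labels give the control replicates of a matrix no other difference in condition. Which of the control numbers is closer to the usual state of such cells cannot be told from 2 numbers, and what sets them apart was not tested.

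**Figure D3:**
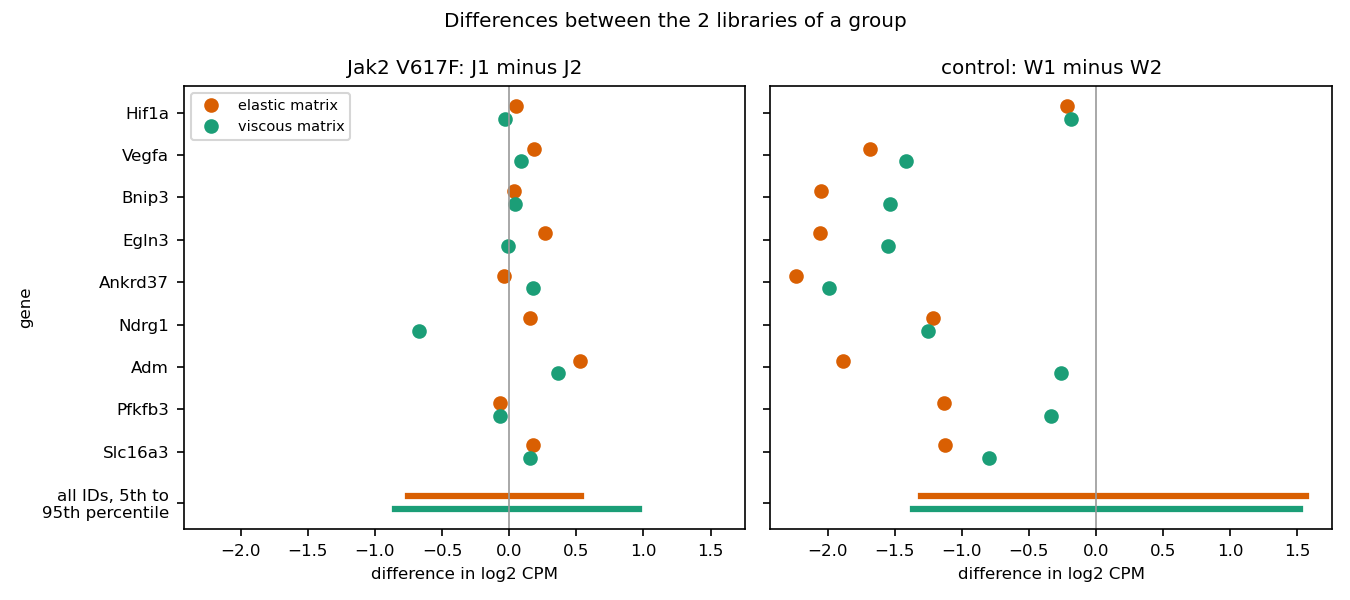
Difference in log2 CPM (x axis) between the 2 libraries of a group for each gene (y axis), in Jak2 V617F cells (left) and control cells (right), with bars for the 5th to 95th percentile of all 14785 IDs. In control cells every point lies left of 0, and in elastic matrix Ankrd37, Egln3, Bnip3, Adm and Vegfa lie beyond the 5th percentile of −1.30.

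The profiles of the genes over the 8 libraries were compared after centring each on its own mean, by the root mean square (RMS) difference in log2 CPM. Egln3 and Ankrd37 were nearest to each other, with an RMS difference of 0.17, and each was the nearest of all 11742 other IDs to its partner. Vegfa and Bnip3 were each other's nearest gene of the set, at 0.23, which ranked 23 of the 11742 IDs from Vegfa and 36 from Bnip3. Slc16a3 was the nearest of the set to Ndrg1 (0.26, rank 98), Adm (0.43, rank 67) and Pfkfb3 (0.25, rank 528). Hif1a was unlike the rest: its nearest gene of the set, Pfkfb3 at 0.26, ranked only 6086. All profiles share the same 8 libraries and the same W1 gap, so closeness over them is a description of these libraries.

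The effect of the matrix was taken first as an average over the genotypes. Most of the 9 genes had a somewhat higher level in elastic than in viscous matrix, but no change passed the test. Of the 9, 8 had a log2 fold change above 0, with a median of 0.35, beside a median of −0.0043 for all IDs. That median moved with the control library left out, because a gel then held W1 or W2 alone and their gap entered. The median was −0.15, with 4 of 9 above 0, without W2 in elastic matrix. Without W1 in viscous matrix it was 0.13, with 6 of 9 above 0. It was 0.67 without W2 in viscous matrix and 0.60 without W1 in elastic matrix, with 9 of 9 above 0 in both, and 0.33 to 0.39 when a Jak2 V617F library was left out. The largest was that of Adm, at 2.13-fold (log2 fold change 1.09, SE 0.44, edgeR adjusted p = 0.775), which was 0.45 without the control W2 library in elastic matrix; Vegfa alone was below 0, at −0.10 (SE 0.44, adjusted p = 0.993). The others were Egln3 at 0.52 (SE 0.49), Slc16a3 at 0.44 (SE 0.28), Ankrd37 at 0.43 (SE 0.57), Pfkfb3 at 0.35 (SE 0.24), Bnip3 at 0.26 (SE 0.49), Ndrg1 at 0.21 (SE 0.37) and Hif1a at 0.18 (SE 0.12), all with an edgeR adjusted p of 0.914 or more. By edgeR 0 of the 9 were called, as were 0% of 14785 IDs; at unadjusted p under 0.05, 1 of the 9 was higher (Adm), against 2.90% of IDs. DESeq2 called 0 of the 9 and 0.906% of IDs, and limma-voom called 0 of both. For 0 of the 9 did all 4 elastic libraries lie above all 4 viscous ones, against 2.07% of IDs. For the 8 genes with both W1 libraries below the other 6, this outcome was fixed. Their W1 library in elastic matrix lay below the viscous libraries of the other numbers, whatever the gel did.

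Within each title number, the elastic library minus the viscous one was above 0 in all 4 numbers for Hif1a (0.04 to 0.28), Egln3 (0.07 to 0.93) and Slc16a3 (0.30 to 0.66). This was the case for 10.6% of all IDs. For Adm the difference in log2 CPM was 1.31 in J1, 1.15 in J2 and 1.40 in W2, but −0.21 in W1. Pfkfb3 showed the same split, with 0.36, 0.35 and 0.64 in J1, J2 and W2 and −0.16 in W1. Bnip3 was at 0.13, 0.14 and 0.49 in these and −0.02 in W1. Vegfa was below 0 in 3 of the 4 numbers, with 0.04 in J1 the exception. Ankrd37 ranged from −0.04 in J1 to 0.83 in W2, and Ndrg1 from −0.11 in J2 to 0.71 in J1.

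Without both control libraries numbered W1 no value changed its direction and all 9 standard errors were smaller. The log2 fold changes averaged over genotypes were 1.36 for Adm (SE 0.29), 0.58 for Egln3 (SE 0.11), 0.50 for Pfkfb3 (SE 0.098), 0.49 for Slc16a3 (SE 0.11), 0.45 for Ankrd37 (SE 0.11) and 0.31 for Bnip3 (SE 0.084). These 6 genes were higher at unadjusted p under 0.05, against 5.25% of 15033 IDs. After adjustment edgeR called 0 of the 9 and 0.0133% of IDs, with adjusted p of 0.190 for Egln3 and 0.199 for Pfkfb3. DESeq2 on these 6 libraries, an analysis added after the data were seen, called 3 of the 9 higher, against 1.36% of IDs: Pfkfb3 (log2 fold change 0.50), Egln3 (0.58) and Slc16a3 (0.50), with adjusted p of 0.000676 for Pfkfb3, 0.00699 for Egln3 and 0.00897 for Slc16a3. Adm, Ankrd37, Bnip3, Vegfa (−0.06), Ndrg1 (0.21) and Hif1a (0.19) were called by neither tool. With these libraries gone each control group is a single library, and only Jak2 V617F cells inform the spread of the fit.

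In Jak2 V617F cells alone, both elastic libraries lay above both viscous ones for 6 of the 9 genes: Hif1a, Egln3, Adm, Bnip3, Pfkfb3 and Slc16a3. The same held for 19.1% of all IDs. Adm averaged 3.52 ± 0.91 CPM in elastic and 1.45 ± 0.27 CPM in viscous matrix (SD, n = 2 each). Pfkfb3 averaged 369 ± 11.9 CPM in elastic and 289 ± 10.0 CPM in viscous matrix, and Slc16a3 329.6 ± 29.1 CPM in elastic and 264 ± 19.8 CPM in viscous matrix. The log2 fold changes were 1.27 for Adm (SE 0.62), 0.35 for Pfkfb3 (SE 0.35) and 0.32 for Slc16a3 (SE 0.40). Vegfa did not follow, with 872 ± 79.9 CPM in elastic and 877 ± 38.9 CPM in viscous matrix. Of the 9 genes edgeR called 0 (adjusted p = 1 for each), and of all IDs 0%, while 0 of the 9 had an unadjusted p under 0.05, against 3.08% of IDs. The DESeq2 test called 0 of the 9 and 0.237% of IDs, and limma-voom 0 of both. Without the W1 libraries the fold changes were nearly the same and their errors smaller: Adm (1.27, SE 0.33, edgeR adjusted p = 0.416) and Pfkfb3 (0.35, SE 0.11, adjusted p = 0.495) were then higher at unadjusted p under 0.05. That is 2 of the 9, against 8.10% of 15033 IDs in either direction. A fit of only the 4 Jak2 V617F libraries also had 2 of the 9 at unadjusted p under 0.05, against 8.46% of 14111 IDs, and called 0 of the 9 after adjustment.

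In control cells both elastic libraries lay above both viscous ones only for Hif1a (768 ± 80.4 CPM in elastic and 638 ± 58.3 CPM in viscous matrix, SD, n = 2 each), against 13.1% of IDs. For the other 8 genes the libraries of the gels overlapped. The W1 gap fixed that outcome, since W1 in elastic matrix lay below W2 in viscous matrix for each of them. The overlap therefore says nothing on a gel response of these 8 genes. Egln3 averaged 49.1 ± 42.6 CPM in elastic and 27.8 ± 19.4 CPM in viscous matrix, and Ankrd37 10.4 ± 9.64 CPM in elastic and 6.05 ± 5.17 CPM in viscous matrix. Their log2 fold changes were 0.82 (SE 0.70) and 0.79 (SE 0.81), with 95% intervals of −0.86 to 2.51 and −1.16 to 2.74. By edgeR 0 of the 9 were called (adjusted p of 0.985 or more) and 0% of IDs; 0 of the 9 had an unadjusted p under 0.05, against 4.85% of IDs. DESeq2 called 0 of the 9 and 0.237% of IDs, and limma-voom 0 of both. Without the W1 libraries 6 of the 9 genes were higher in elastic matrix at unadjusted p under 0.05, against 6.59% of 15033 IDs in either direction. They were Adm (1.45, SE 0.48), Egln3 (0.93, SE 0.18), Ankrd37 (0.83, SE 0.19), Slc16a3 (0.67, SE 0.18), Pfkfb3 (0.64, SE 0.16) and Bnip3 (0.50, SE 0.14). After adjustment edgeR called 0 of the 9, with the lowest adjusted p, 0.485, for Egln3, while DESeq2 called 2 of the 9 (Egln3 and Pfkfb3) and 0.692% of IDs. These values set 1 control library against 1 other, with the spread taken from Jak2 V617F cells. Without the control W2 library in elastic matrix, W1 stood alone for that gel, and 7 of the 9 genes turned to values below 0, from −0.11 for Slc16a3 to −0.98 for Bnip3. Vegfa turned to 0.70 without the control W2 library in viscous matrix and to 0.43 without the control W1 library in elastic matrix. The average over genotypes turned below 0 without the control W2 library in elastic matrix for Bnip3 (−0.42), Ankrd37 (−0.34), Egln3 (−0.16) and Ndrg1 (−0.15).

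**Figure D4:**
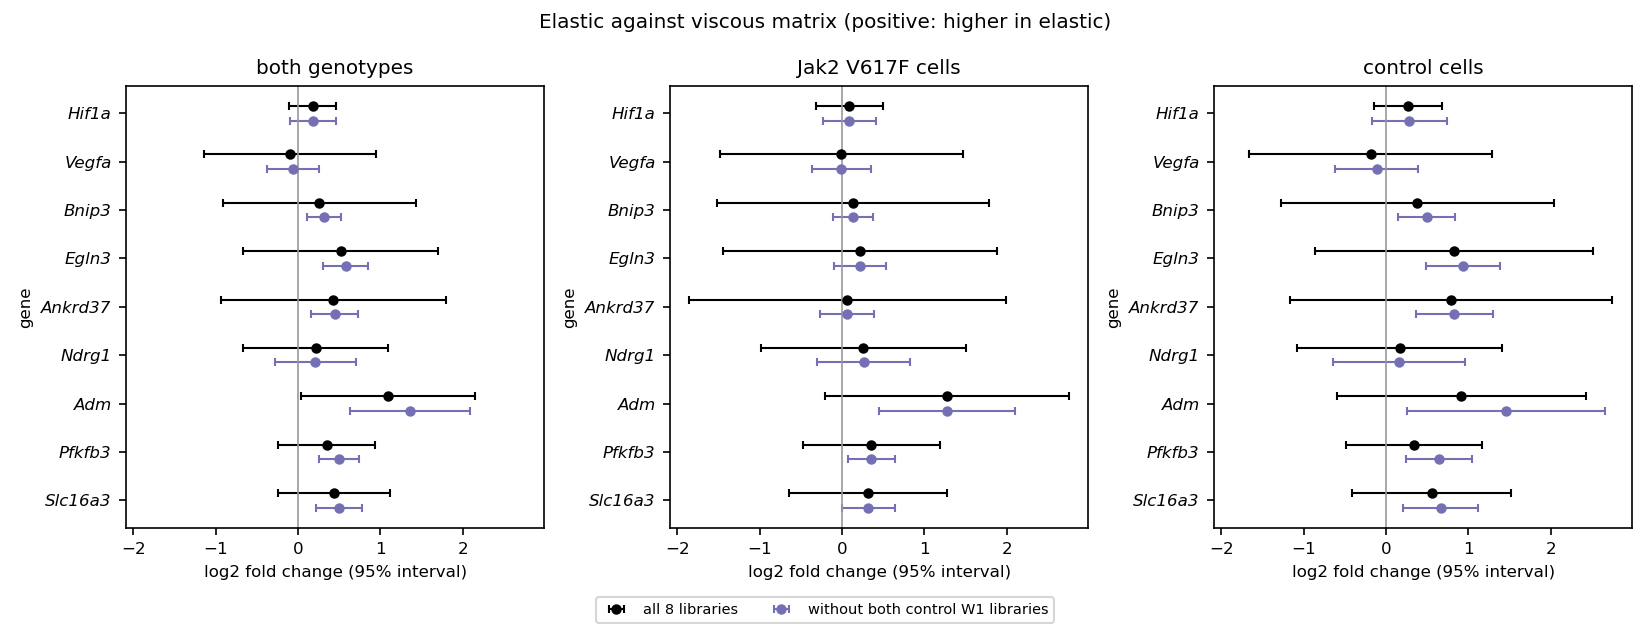
Log2 fold change of elastic against viscous matrix with its 95% interval (x axis) for each gene (y axis), over both genotypes, in Jak2 V617F cells and in control cells. Black marks use all 8 libraries and purple marks leave out both control W1 libraries; with all 8, only the interval of Adm over both genotypes (0.04 to 2.15) lies above 0.

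Whether the mutation altered the gel response was tested as the difference of the 2 matrix effects, Jak2 V617F minus control. The differences ran from −0.72 for Ankrd37 (SE 1.14, 95% interval −3.46 to 2.01) and −0.60 for Egln3 (SE 0.99, −2.97 to 1.76) to 0.36 for Adm (SE 0.88, −1.75 to 2.46). The narrowest interval was that of Hif1a, −0.76 to 0.40 around −0.18. With all 8 libraries each interval includes 0 and all but that of Hif1a also include a difference of 1 log2 unit in both directions, so they neither show a difference nor show that the genotypes respond alike. Without the W1 libraries the difference was −0.77 for Ankrd37 (SE 0.23, −1.34 to −0.20) and −0.72 for Egln3 (SE 0.22, −1.26 to −0.17), so that both intervals lie below 0. These were 2 of the 9 at unadjusted p under 0.05, against 2.95% of 15033 IDs, but neither was called after adjustment (edgeR adjusted p = 1.00 for both). Adm then stood at −0.18 and Pfkfb3 at −0.29. With all 8 libraries edgeR called 0 of the 9 (adjusted p = 1.00 for each) and 0% of IDs, and 0 of the 9 had an unadjusted p under 0.05, against 1.72% of IDs. The DESeq2 test called 0 of the 9 and 0.0135% of IDs, and limma-voom 0 of both.

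Genotypes were then compared within each matrix. With all libraries, every one of the 9 genes had a higher mean in Jak2 V617F cells in both matrices, but no change passed the test and the control groups held the low W1 libraries. In elastic matrix the log2 fold changes of Jak2 V617F against control cells ran from 0.07 for Hif1a (SE 0.17) to 0.80 for Vegfa (SE 0.62) and 0.95 for Adm (SE 0.62). Vegfa averaged 872 ± 79.9 CPM in Jak2 V617F cells, against 500.7 ± 373 CPM in control cells (SD, n = 2 each). Both Jak2 V617F libraries lay above both control libraries for 2 of the 9 genes (Vegfa and Ndrg1), against 17.2% of IDs. For 8 of the 9 genes W1 already lay below every Jak2 V617F library, so only the control W2 library could decide this. By edgeR 0 of the 9 were called (adjusted p of 0.937 or more) and 0% of IDs; 0 of the 9 had an unadjusted p under 0.05, against 4.42% of IDs. DESeq2 called 0 of the 9 and 0.298% of IDs, and limma-voom 0 of both.

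In viscous matrix the largest log2 fold changes were 1.27 for Egln3 (SE 0.71, edgeR adjusted p = 0.670) and 1.14 for Ankrd37 (SE 0.82, adjusted p = 0.721). Egln3 averaged 67.2 ± 0.26 CPM in Jak2 V617F cells, against 27.8 ± 19.4 CPM in control cells (SD, n = 2 each). Both Jak2 V617F libraries lay above both control libraries for 7 of the 9 genes, all but Bnip3 and Ndrg1, against 18.6% of IDs. As in elastic matrix, W1 already lay below every Jak2 V617F library for 8 of the 9 genes, and W2 alone could decide. The share of all IDs carries no such condition, so the comparison is not a like one. The edgeR test called 0 of the 9 and 0% of IDs; 0 of the 9 had an unadjusted p under 0.05, against 7.31% of IDs. The DESeq2 test called 0 of the 9 and 0.413% of IDs, and limma-voom 0 of both. Over the matrices combined, a gap between the 4 Jak2 V617F libraries and 4 lower control libraries was found for 0 of the 9 genes and for 3.50% of IDs.

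Without the W1 libraries the log2 fold changes of the genotype comparison were lower for all 9 genes in both matrices. In elastic matrix the median log2 fold change of the 9 genes was −0.02, against 0.46 with all libraries. Bnip3 (−0.35, SE 0.12), Ankrd37 (−0.31, SE 0.16) and Pfkfb3 (−0.21, SE 0.14) stood below 0, as did, narrowly, Hif1a (−0.030) and Egln3 (−0.019). In viscous matrix the median was 0.16, against 0.59, and Vegfa was at 0.09 (SE 0.18), against 0.63. Egln3 was still at 0.70 (SE 0.16) and Ankrd37 at 0.45 (SE 0.16) in viscous matrix. By edgeR 0 of the 9 were called in either matrix, with adjusted p of 0.340 for Egln3 and 0.391 for Ankrd37 in viscous matrix. At unadjusted p under 0.05 there were 2 of the 9 in viscous matrix, Egln3 and Ankrd37, both higher, against 12.1% of 15033 IDs, and 1 of the 9 in elastic matrix, Bnip3, which was lower, against 4.90% of IDs.

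On counts summed per title number, which count each number once, the log2 fold changes of Jak2 V617F against control cells ran from 0.17 for Hif1a (SE 0.17) to 0.92 for Egln3 (SE 0.64), with 0.80 for Adm (SE 0.52) and 0.71 for Vegfa (SE 0.54). On these sums edgeR called 0 of the 9 (adjusted p of 0.798 or more) and 0% of 15239 IDs; 0 of the 9 had an unadjusted p under 0.05, against 5.22% of IDs. DESeq2 called 0 of the 9 and 0.696% of IDs, and limma-voom 0 of both. The result rests on which control number is used. Against W1 alone, edgeR called 8 of the 9 genes higher in Jak2 V617F cells, all but Hif1a, against 7.98% of IDs; Ankrd37 was 4.66-fold higher (log2 fold change 2.22, SE 0.15, adjusted p = 0.00235) and Vegfa 3.22-fold higher (1.69, SE 0.15, adjusted p = 0.00389). Against W2 alone it called 0 of the 9 and 0% of IDs, with log2 fold changes from −0.19 for Bnip3 (SE 0.10) to 0.30 for Adm (SE 0.31). A comparison with 1 control sum takes its spread from the Jak2 V617F sums only. W1 was singled out because both its libraries lay below the other 6 for these same 8 genes. Calling the 8 genes against W1 alone therefore gives back that choice. Their count and adjusted p-values are descriptions of W1. Set beside the share of all IDs, which carries no such choice, they are no independent support for a genotype effect.

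**Figure D5:**
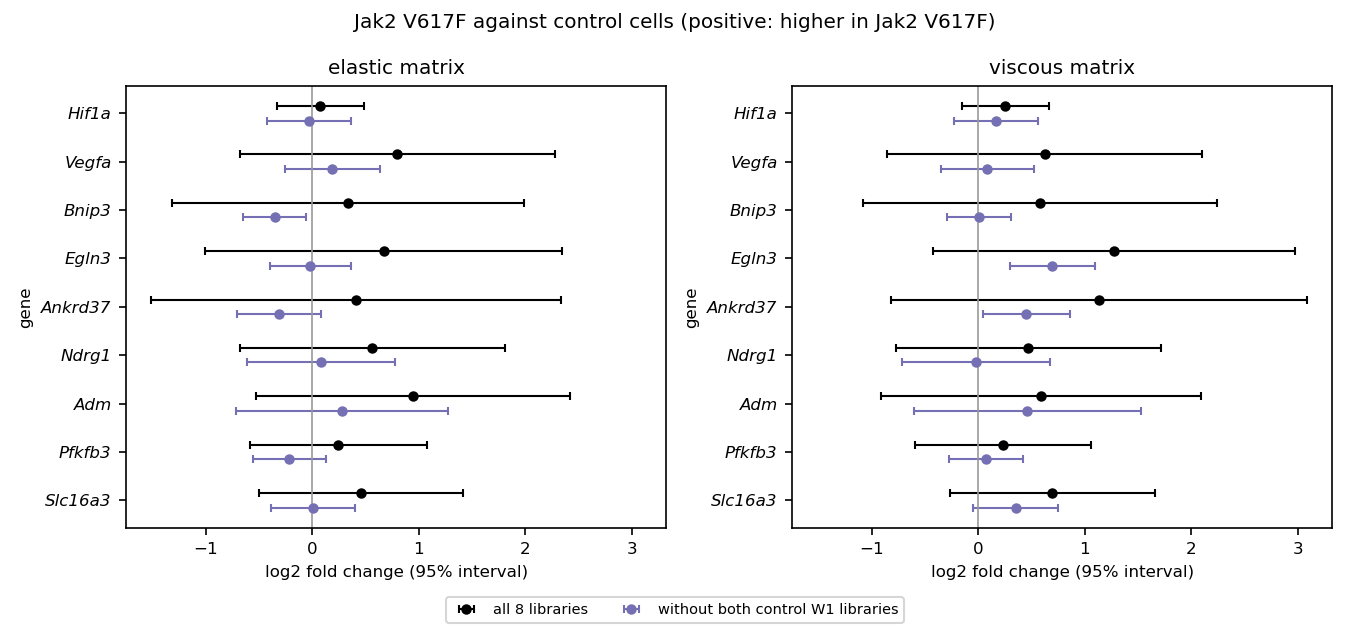
Log2 fold change of Jak2 V617F against control cells with its 95% interval (x axis) for each gene (y axis), in elastic (left) and viscous matrix (right). Black marks use all 8 libraries and purple marks leave out both control W1 libraries, which moves Vegfa to 0.19 in elastic and 0.09 in viscous matrix, and leaves Egln3 at 0.70 in viscous matrix.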

How the data were processed

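RNA was measured by sequencing in 8 libraries. The authors deposited whole counts, without normalization, for 17640 Ensembl gene IDs; the 8 per-library files repeat the values of the series table. Salmon, DESeq2 and GRCm38 were used, per the submitters' processing notes, which give no versions or order. The steps from transcript estimates to rounded and filtered counts are not stated there. No ID summed to less than 10 counts.

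The main test was the quasi-likelihood test of edgeR 4.0.16 (R 4.3.3), with filterByExpr, TMM scaling and 4 group means fitted to all 8 libraries. Genotypes were also compared on counts summed per title number. Tests were two-sided, and calls needed a Benjamini-Hochberg adjusted p under 0.05 over all IDs tested. CPM are per 1e+06 counts of the TMM-scaled total; their log2 values include a prior count of 2. Alternatives were DESeq2 1.42.0, limma-voom (limma 3.58.1), other scalings and filters, each library left out, both W1 libraries left out, a block for the title number, and a fit of only the 4 libraries compared. DESeq2 left the adjusted p of 860 IDs undefined for the gels in control cells and of 287 for the genotypes in elastic matrix; without the W1 libraries it did so for 1166 IDs for the gels over both genotypes, 1749 in control cells, 875 in Jak2 V617F cells, 583 for the genotypes in viscous and 1458 in elastic matrix. None of these counts as called. The 95% intervals of counts are exact Poisson intervals and cover counting error only. Plots were made with matplotlib 3.10.9 (Python 3.11.15).

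By the rule for named genes all 9 members are named, and no ID without a symbol is; the members and the lists were chosen with earlier results of these data known. Gene and marker lists could not be matched to the IDs, and Jak2 itself was not analysed here. The main fits did not use title numbers as pairs; differences within a number and a fit with the number as a block are given beside them. The correlation of deviations from group means between libraries sharing a number was 0.53 for the control cells and −0.089 for the Jak2 V617F cells.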

Additional observations from a re-analysis of the deposited data

How the results depend on the processing

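Of 990 alternative log2 fold changes of the 9 genes, 933 kept their direction and 57 did not. Of these, 47 were with 1 library or sum left out and 8 by edgeR without both control W1 libraries. From DESeq2 without the W1 libraries, the 990 hold only the gels over both genotypes. In its other comparisons the same 8 values changed direction as by edgeR. The counts that follow include all comparisons of that fit. Of 115 alternative counts of genes called among the 9, 112 were 0. The exceptions were 3 by DESeq2 without the W1 libraries in the comparison of gels over both genotypes, 2 by the same fit in control cells (Egln3 and Pfkfb3), and the genotype sums, where leaving out 1 sum gave 0 to 8. No scaling moved the median of all IDs by more than 0.022. The causes were not tested, except that fits with a library left out have fewer samples, and that a group left with 1 library is assumed to vary like the others.

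Over all IDs edgeR called 0 in each comparison. DESeq2 called 134 for the gels over both genotypes, 35 in control cells, 35 in Jak2 V617F cells, 2 for the difference between these effects, 61 for the genotypes in viscous matrix, 44 in elastic matrix and 106 on the sums. Without the W1 libraries DESeq2 called 345, 104, 189, 8, 170 and 58 for the first 6 of these, and edgeR 2 for the gels over both genotypes and 1 for the gels in Jak2 V617F cells. For the gels over both genotypes, 1 ID was called without a filter, 1 with the stricter filter and 5 with the title number as a replicate block. A fit of only the 4 Jak2 V617F libraries called 1, the genotype effect averaged over the 8 libraries 2, and the sums with 1 left out 0 to 2664.

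With the replicate block 0 of the 9 genes were called in any of the comparisons of gels. Over both genotypes Egln3 was then at 0.45 (SE 0.11, edgeR adjusted p = 0.244) and Slc16a3 at 0.41 (SE 0.094, adjusted p = 0.211). Their errors in the main fit were 0.49 and 0.28. At unadjusted p under 0.05 the block fit had 4 of the 9 higher, against 830 of 14785 IDs. These were Slc16a3, Egln3, Ankrd37 and Adm. In control cells 3 of the 9 were higher at that level, against 1397 IDs in either direction. In Jak2 V617F cells it was 1 of the 9 (Adm), against 1036 IDs. Why the errors were smaller was not tested. The labels do not state what the numbers pair.

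By scaling with DESeq2's size factors, and by DESeq2, the log2 fold change of Vegfa between gels in Jak2 V617F cells was 0.0015. Without both W1 libraries the difference of the matrix effects was −0.18 for Adm and −0.29 for Pfkfb3. The genotype effect was then −0.023 for Ndrg1 in viscous matrix, and in elastic matrix −0.030 for Hif1a, −0.35 for Bnip3, −0.019 for Egln3, −0.31 for Ankrd37 and −0.21 for Pfkfb3.

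Leaving out 1 library at a time gave these ranges of the log2 fold change, given for the genes whose direction turned and for Adm. Over both genotypes, elastic against viscous ran from −0.63 to 0.35 for Vegfa, −0.42 to 0.74 for Bnip3, −0.16 to 1.01 for Egln3, −0.34 to 1.10 for Ankrd37 and −0.15 to 0.60 for Ndrg1, while Adm stayed above 0, at 0.45 to 1.43. In Jak2 V617F cells it ran from −0.10 to 0.091 for Vegfa, −0.020 to 0.16 for Ankrd37 and −0.035 to 0.63 for Ndrg1. In control cells it ran from −1.26 to 0.70 for Vegfa, −0.98 to 1.35 for Bnip3, −0.55 to 1.80 for Egln3, −0.74 to 2.13 for Ankrd37, −0.56 to 0.93 for Ndrg1, −0.37 to 1.59 for Adm, −0.33 to 0.80 for Pfkfb3 and −0.11 to 1.02 for Slc16a3. The difference of the matrix effects ran from −0.71 to 1.25 for Vegfa, −1.22 to 1.11 for Bnip3, −1.59 to 0.77 for Egln3, −2.06 to 0.80 for Ankrd37, −0.67 to 0.82 for Ndrg1, −0.32 to 1.64 for Adm, −0.45 to 0.69 for Pfkfb3 and −0.70 to 0.43 for Slc16a3. Jak2 V617F against control ran from −0.023 to 1.23 for Ndrg1 in viscous matrix. In elastic matrix it ran from −0.030 to 0.19 for Hif1a, −0.35 to 1.70 for Bnip3, −0.019 to 2.04 for Egln3, −0.31 to 1.94 for Ankrd37 and −0.21 to 0.92 for Pfkfb3. On the sums it ran from −0.19 to 1.64 for Bnip3 and −0.10 to 0.68 for Pfkfb3. Low counts limit Adm most, with 23 to 143 counts a library.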
